A study of Mus musculus with 1152 samples.

Results

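The genes described here are the type I interferon-stimulated genes (ISGs), a list of 34 genes that cells switch on when interferon-α or interferon-β binds its receptor. The members were chosen by name. Of the 34, 33 are rows of the expression table, among 23168 genes in all, and Mx1 was not analysed here. The cells were lymphatic endothelial cells (LECs) of aged C57BL/6 mice, which the labels write c57bl/6, sorted from the nasopharynx as CD31+ PDPN+ and sequenced 1 cell at a time by Smart-seq3, which reads whole transcripts of cells in plate wells. By the study's methods, tissue of both sexes was pooled before the sort and no agent or transgene is named for these cells. The labelled cells formed 1 group, and the table holds 56.9% of those cells. No label names an animal or a plate for a cell, so the cells are 1 pool without replicates, no test or standard error was taken over cells, and no age comparison was made. SDs below are spreads between cells, and 95% intervals are exact (Clopper-Pearson) and cover counting error only, since PCR copies of a molecule were counted as separate reads.

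The 8 LEC identity genes, Prox1, Flt4 and Pdpn among them, were detected in 87.7% to 100% of cells. Reads per cell ran from 7046 to 10727631 with a median of 148202.5, and detected genes from 2006 to 7679. A share of cells at matched depth therefore comes from the 86.6% of cells with at least 20000 reads, each thinned to that number. Of the defining haematopoietic markers, C1qa had a read in 0 cells (taking 3 cells as the most a count of 0 leaves room for, at most 0.457%), Cd3e in 0.457% and Ptprc in 0.915%, while Cd68 was detected in 12.8% and Fcer1g in 9.60%. At least 1 of the 6 genes Ptprc, Fcer1g, Tyrobp, Lyz2, Csf1r and Cd68 had a read in 27.9% of cells. Although the methods name both sexes, Xist was detected in 92.8% of cells and a Y-linked gene in 4 cells.

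In the type I pathway, interferon bound to the receptor chains IFNAR1 and IFNAR2 activates the kinases JAK1 and TYK2, and the complex ISGF3, which contains STAT2 and IRF9, then forms. ISGF3 binds a DNA element, the interferon-stimulated response element (ISRE), in front of its target genes. The products detect foreign nucleic acid, block viral translation, cut viral RNA, hold virions at the membrane or damp the signal itself, and most cell types keep some of them at a low level without infection.

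The DNA in front of the genes is shown first, because the ISRE is what members of such a list are known to share and the list was not chosen by sequence. RefSeq promoter windows (GRCm38.p6, 250 bases before to 50 after a start) were found for 26 of the 34 members. The core of the ISRE was searched on both strands as GAAANNGAAA, and 12 of the 26 members held it, or 46.2%, against 3.99% of all 27025 gene symbols with a window. The gamma-activated site, searched as TTCNNNGAA, was held by 5 of 26, or 19.2%, against 9.55% of all symbols. In Bst2 an ISRE core and this second motif overlapped. A match describes the letters only, and binding was not measured.

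In 9 members an ISRE core lay wholly before the start. These stretches are printed 5′ to 3′ in the direction of the gene, with the ISRE cores in capitals (TTTC at both ends marks a core on the opposite strand) and up to 25 bases on each side.
Isg15: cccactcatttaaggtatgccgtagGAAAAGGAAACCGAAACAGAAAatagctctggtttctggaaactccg
Ifit1: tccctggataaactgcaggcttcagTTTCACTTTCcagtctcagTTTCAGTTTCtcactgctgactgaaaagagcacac
Ifit3: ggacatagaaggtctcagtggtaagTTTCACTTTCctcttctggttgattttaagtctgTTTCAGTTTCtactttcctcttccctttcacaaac
Trim30a: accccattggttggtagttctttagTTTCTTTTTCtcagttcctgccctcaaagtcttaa
Bst2: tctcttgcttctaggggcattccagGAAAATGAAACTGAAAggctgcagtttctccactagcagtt
Oas1a: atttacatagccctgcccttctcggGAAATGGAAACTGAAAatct
Rsad2: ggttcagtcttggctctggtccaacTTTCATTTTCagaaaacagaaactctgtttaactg
Ddx60: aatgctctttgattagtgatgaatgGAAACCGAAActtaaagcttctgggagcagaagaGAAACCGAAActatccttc
Stat2: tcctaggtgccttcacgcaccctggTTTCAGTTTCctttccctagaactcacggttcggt

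In these stretches Isg15 (chr4:156200850-156200921, minus strand) carried 3 overlapping cores beginning 78, 72 and 66 bases before the start. Ifit1 (chr19:34640760-34640838, plus strand) and Ifit3 (chr19:34583348-34583441, plus strand) carried 2 separate cores each, as did Ddx60 (chr8:61928009-61928086, plus strand). Bst2 (chr8:71537562-71537627, minus strand) and Oas1a (chr5:120907526-120907570, minus strand) carried 2 overlapping cores. Trim30a (chr7:104465195-104465254, minus strand), Rsad2 (chr12:26456538-26456597, minus strand) and Stat2 (chr10:128270251-128270310, plus strand) carried 1 core. The remaining matches, in Ddx58, Ifih1, Eif2ak2 and a second window of Trim30a, began after the start and are not printed.

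Across cells the genes ranged from nearly universal to rare. The median member had a read in 34.9% of cells. Oas2 was at the low end with 1.37% and Bst2 at the high end with 98.2%, and 9 members reached 50% of cells. Over the 20981 genes of the table with a read, the median was 7.62% and 13% reached 50% of cells. At matched depth the median member was detected in 24.3% of cells. Levels between genes are compared below as mean reads per 10000 per kb of exon. The length is that of all annotated exons of a gene merged, not of 1 transcript, so the order of genes depends in part on the annotation. The deposited values are natural logs of 1 plus reads per 10000 and are called log values.

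**Figure D1:**
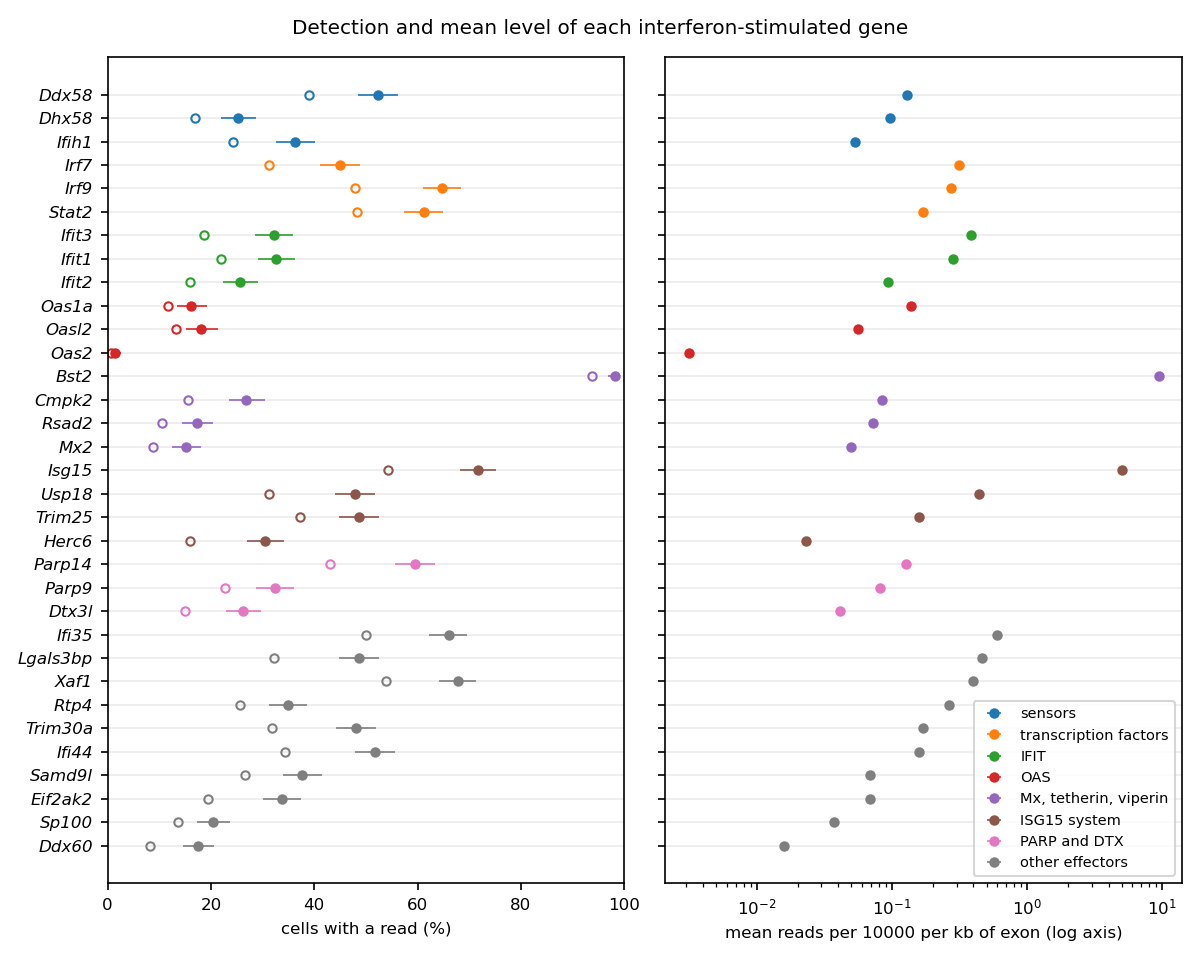
Each row is 1 gene, grouped by role. Left, percent of cells with a read, for all cells (filled, with the exact 95% interval) and for the cells thinned to 20000 reads (open). Right, mean reads per 10000 per kb of exon on a log axis. Bst2 at 9.37 and Isg15 at 4.99 stand to the right of the other genes, of which Ifi35 is highest at 0.601.

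Tetherin, encoded by Bst2 (GRCm38 chromosome 8, 71534255 to 71537456), holds budding virions at the cell surface and was the most abundant member. Its log value was 1.91 ± 0.846 (SD over all cells), with a lowest of 0, a median of 1.94 and a highest of 4.47. It gave 9.37 reads per 10000 per kb and 26% of the summed level of all members. Bst2 was thus a gene of nearly every cell, and the 10% of cells with the most of it held 33.7% of its level, the lowest such share among the 33 members.

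The ubiquitin-like protein ISG15 is attached to other proteins in infected cells. Isg15 (chromosome 4, 156199424 to 156200818) was detected in 71.8% of cells (interval 68.2 to 75.2%) and had a mean log value of 0.919 ± 1.03, a median of 0.603 and a highest of 4.67. It was the second most abundant member at 4.99 reads per 10000 per kb, and gave 11.6% of the summed level. The highest 10% of cells held 58.2% of its level, so it varied more between cells than Bst2.

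The other members of the ISG15 system were lower. Usp18 (chromosome 6, 121245906 to 121270917), the protease that removes ISG15 and damps the receptor, was detected in 47.9% of cells at 0.442 reads per 10000 per kb. Trim25, a ubiquitin ligase that acts on RIG-I, was detected in 48.6% at 0.159, and Herc6, the mouse ligase for ISG15, in 30.5% at 0.0231. The 4 genes of this system therefore spanned more than the whole range of the sensors.

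Of the RNA sensors, Ddx58 (chromosome 4, 40203773 to 40239828), which encodes RIG-I, was detected in 52.4% of cells, Ifih1, which encodes MDA5, in 36.3%, and Dhx58, which encodes the regulator LGP2, in 25.3%. Their levels were 0.129, 0.0534 and 0.0965 reads per 10000 per kb. The median log value was 0.0172 for Ddx58 and 0 for Ifih1 and Dhx58, and the highest cell reached 3.09, 2.96 and 2.44.

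The transcription factors were among the more widely detected members. Irf9 (chromosome 14, 55603571 to 55610030) was detected in 64.8% of cells (61 to 68.4%) and Stat2 (chromosome 10, 128270559 to 128292849) in 61.3% (57.4 to 65%), so these partners in ISGF3 had overlapping intervals. Irf7 (chromosome 7, 141262706 to 141266481), the factor that amplifies interferon production, was detected in 45% (41.1 to 48.9%). By level per kb the order was Irf7 at 0.314, Irf9 at 0.274 and Stat2 at 0.170. Irf7 was thus found in fewer cells than Irf9 and Stat2 but had the highest mean per kb of them. Before division by exon length Irf9 had the higher mean, 1.48 reads per 10000 against 1.19 for Irf7. The highest 10% of cells held 69% of the Irf7 level against 49.4% for Irf9.

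The IFIT genes bind viral RNA and block its translation, and lie together on chromosome 19. Ifit1 (34640871 to 34650009) was detected in 32.6% of cells, Ifit3 (34583531 to 34588731) in 32.2% and Ifit2 (34550694 to 34576419) in 25.6%. Their levels were 0.282, 0.381 and 0.0925 reads per 10000 per kb. The median cell had a log value of 0 for each, while the highest cell reached 3.33, 3.18 and 3.2. Reads of Ifit3 may be shared with its near copy Ifit3b, which was detected in 19.7% of cells.

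The oligoadenylate synthetases, which activate RNase L, were the rarest family. Oas1a was detected in 16.2% of cells, Oasl2, a relative, in 18.1%, and Oas2 in 1.37% (0.629 to 2.59%). Their levels were 0.137, 0.0559 and 0.00313 reads per 10000 per kb. Oas2 was the only member under 10% of cells, had its highest log value at 1.58, and was left out of correlations. Oas1a has near copies, so its reads may be split with them.

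Of the other antiviral effectors, Mx2 (chromosome 16, 97535308 to 97560900), a dynamin-like GTPase, was detected in 15.1% of cells, and Rsad2, which encodes viperin, in 17.2%. Cmpk2, a nucleotide kinase gene next to Rsad2, was detected in 26.8%. The highest 10% of cells held 98.7% of the Mx2 level, 98.3% of the Rsad2 level and 88.9% of the Cmpk2 level. These genes were at 0 in most cells, which by itself puts much of their level in few cells. Oas1a, Oasl2 and Ddx60, detected about as often as Mx2 and Rsad2, had shares of 93.7%, 96.1% and 96.3%.

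Parp9, Dtx3l and Parp14 act in ADP-ribosylation and ubiquitination downstream of interferon and lie together on chromosome 16. Parp14 was detected in 59.6% of cells, Parp9 in 32.3% and Dtx3l in 26.2%. Parp9 and Dtx3l lie on opposite strands and share exon bases, and counting by strand is not stated, so reads there cannot be assigned. In all, 12 of the 33 members shared exon bases with another annotated gene.

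The remaining 10 members ran from 17.5% of cells for Ddx60, a helicase, to 67.8% for Xaf1, a pro-apoptotic factor. By level per kb, Ifi35 led them at 0.601, followed by the secreted glycoprotein gene Lgals3bp at 0.461 and Xaf1 at 0.395. Rtp4 stood at 0.266, Trim30a at 0.169, Ifi44 at 0.159, Samd9l at 0.0688, Eif2ak2 at 0.0680, Sp100 at 0.0372 and Ddx60 at 0.0158. Eif2ak2 encodes PKR, the kinase that stops translation on double-stranded RNA, and Sp100 a nuclear body protein.

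Cells differed in how many of these genes they carried. At 20000 reads a cell had reads of a median of 8 of the 33 genes, with quartiles of 5 and 12, and the range ran from 0 in 1 cell to 30. The 86 cells with 4 or fewer made 15.1% of the cells, and the 58 with 17 or more made 10.2%. On the linear scale the summed level of all members was lowest at 0.489, had a median of 22.1 and was highest at 337.9 reads per 10000, with no gap between a low and a high set of cells in the plot of genes per cell.

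**Figure D2:**
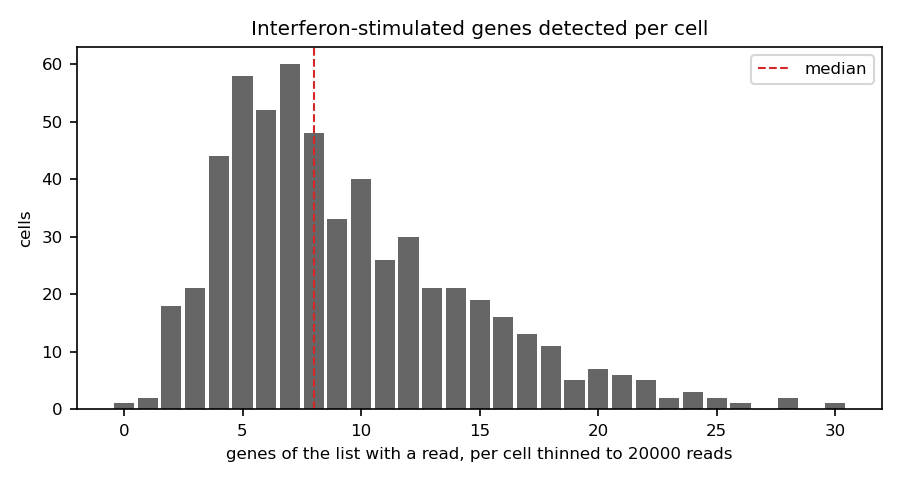
Number of genes of the list with a read in each cell thinned to 20000 reads (x axis) against the number of cells (y axis), with the median of 8 as a dashed line. The distribution has 1 peak and a tail that reaches 30 genes.

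The number of members in a thinned cell moved with other measures of that cell. Its Spearman rho over the thinned cells was 0.414 with all genes detected at the same depth, 0.316 with the summed MHC class I level, 0.0505 with the dissociation score and 0.0140 with the summed haematopoietic markers. It was -0.109 with total reads before thinning. These correlations are across cells of 1 pool that share libraries, and are descriptions without a p. The part of the number of detected genes in the count of members was not tested beyond the regression given next.

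The genes varied together. Over the 32 members detected in at least 10% of cells, Spearman's rho across all cells had a median of 0.154 over the pairs of members, and all pairs but 1 were above 0. A rho of at least 0.2 was reached by 20.6% of the pairs, against 0.12% of all pairs of the 9666 genes that met the same 10% limit. Those genes were not matched to the members in detection or level. At matched depth, over the 30 members that still passed the 10% limit, the share was 25.7% against 0.0733%. With the number of detected genes regressed from the ranks the median over the 32 members was 0.132, and with the mean of each block of cells removed it was 0.15.

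Irf7 and Isg15 formed the closest pair, with a rho of 0.374. Both were detected in 37.3% of cells, Irf7 alone in 7.62%, Isg15 alone in 34.5% and neither in 20.6%. Ifit1 with Ifi44, a gene of uncertain mechanism, reached 0.361, Isg15 with Usp18 0.354 and Ifit1 with Isg15 0.353. The genes of each of these pairs lie on different chromosomes. At matched depth Ifit1 with Isg15 was highest, at 0.419. At the other end, Mx2 with Xaf1 was the 1 pair below 0, at -0.0131.

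**Figure D3:**
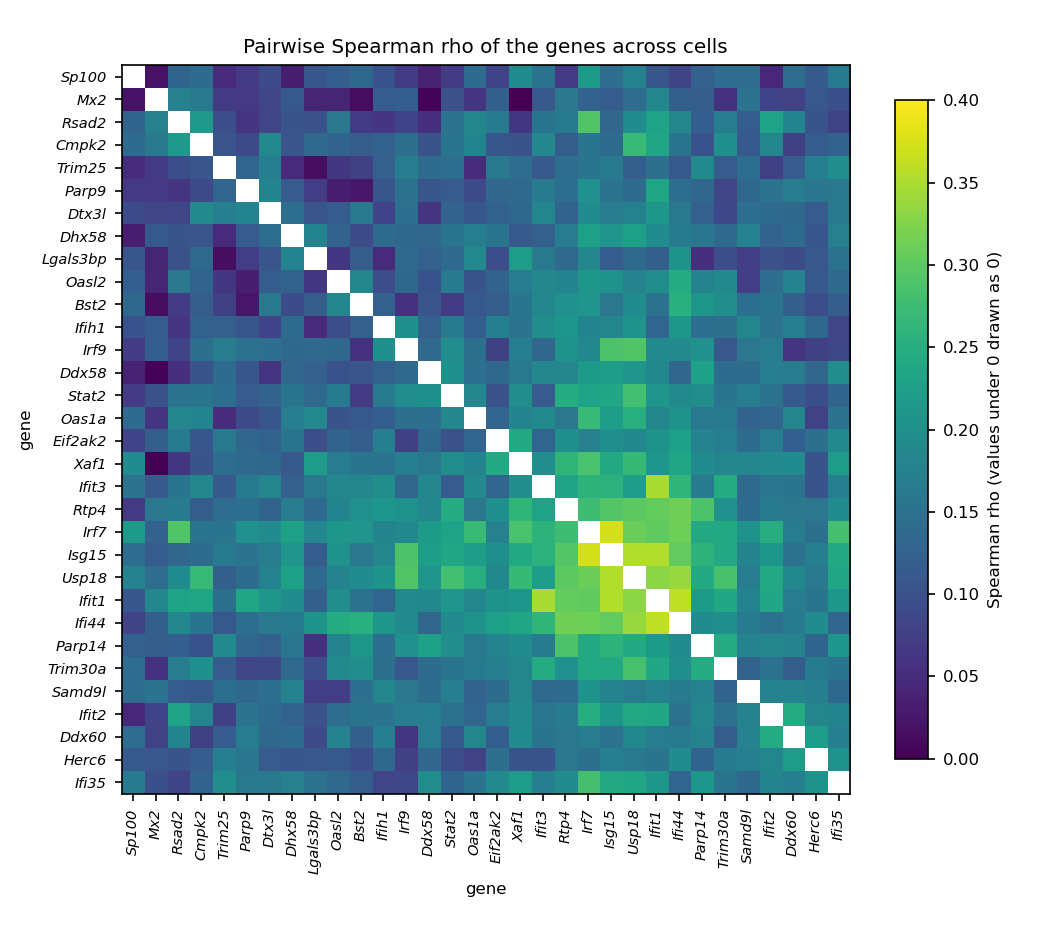
Spearman rho between each pair of the 32 genes detected in at least 10% of cells, ordered by average linkage, with the diagonal left blank. The brightest square joins Irf7, Isg15, Usp18, Ifit1 and Ifi44, with values of 0.302 to 0.374 between its pairs.

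Cut where the average rho between groups fell under 0.2, the 32 genes gave 6 sub-groups and 11 single genes. The largest sub-group held Irf7, Ifit1, Ifit3, Isg15, Usp18, Parp14, Eif2ak2, Rtp4, Xaf1, Ifi44 and Trim30a, with a median rho of 0.245 among themselves. It had a median of 0.166 with the other 21 genes, which had 0.126 among themselves. The sub-group was made from these values, so its height is a description. It spans a transcription factor, RNA binders, the ISG15 system and a kinase rather than 1 family.

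The 5 smaller sub-groups were pairs. Ddx58 joined Stat2, Herc6 joined Ifi35, Ifih1 joined Irf9, Ifit2 joined Ddx60 and Rsad2 joined Cmpk2. The first 3 of these pairs had rho values of 0.201, 0.204 and 0.2, close to the cut. Bst2, the most abundant member, stood alone, with a median rho of 0.122, as did Mx2, the lowest at 0.108. Usp18 had the highest median rho with the rest, 0.222, followed by Irf7 at 0.219, Isg15 at 0.209 and Ifit1 at 0.208. At a cut of 0.25 the largest sub-group shrank to 7 genes, Irf7, Ifit1, Ifit3, Isg15, Usp18, Rtp4 and Ifi44. These 7 were in the largest sub-group also at a cut of 0.15, where it held 23 genes, and at matched depth, where it held 11. At matched depth Ifit2 and Oasl2 took the places of Parp14 and Eif2ak2 in the largest sub-group. Of the pairs only Rsad2 with Cmpk2 stayed, while Ddx58 joined Parp14 and Dhx58 joined Oas1a.

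Genes that lie side by side were not all close. Of the 7 pairs within 200 kb, Ifit1 with Ifit3 had a rho of 0.349, Ifit1 with Ifit2 0.238, Rsad2 with Cmpk2 0.215, and Dtx3l with Parp14 0.122. Their median was 0.180, against 0.154 for the other pairs. Rsad2 and Cmpk2, whose bodies lie 12.8 kb apart, were both detected in 8.08% of cells, Rsad2 alone in 9.15% and Cmpk2 alone in 18.8%. Of the 8 genes of the largest sub-group with a promoter window, 5 held an ISRE core, as did 7 of the 18 other members with one.

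Of the 15 genes outside the list that were most like it, 10 stand on the lists of other interferon and pathway genes, and Rnf213, Gm4951, Ube2l6, Ifi47 and Ly6e stand on none. By median rho with the 32 members over all cells, Rnf213, a large ubiquitin ligase, led at 0.213, followed by Zbp1, a sensor of Z-form nucleic acid, at 0.2, Gm4951 at 0.195, and the guanylate-binding protein genes Gbp3, Gbp7 and Gbp6 at 0.187, 0.184 and 0.179. Next came Ube2l6, the conjugating enzyme for ISG15, at 0.177, Ifit3b at 0.175, Phf11d, Ifi47, Ly6e, Iigp1, Irgm2 and Ifi27l2a, down to 0.158. Of the 9634 other genes compared, 0.0208% reached 0.2 and 0.571% reached 0.1.

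The wider interferon genes did not all follow. Of 34 other ISGs compared, 22 reached 0.1, among them Zbp1, which also stands on the list of sensing genes. Ifitm3, detected in all cells, had 0.115, while its neighbour Ifitm2 had 0.0136. Of 6 genes that lean towards interferon-γ, 3 reached 0.1, namely Gbp4 at 0.125, Gbp2 at 0.114 and Cd274 at 0.105, whereas Irf1 had 0.0225. Of 8 MHC class I genes, 3 reached it, H2-T23 at 0.145, H2-T22 at 0.130 and B2m at 0.120. None of 20 dissociation genes did, and their median was 0.00212.

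The receptor chains and their kinases were detected but varied little with the members. The 12 interferon ligand genes listed were not analysed here. Of the receptor chains, Ifnar2 was detected in 84.6% of cells at 0.707 reads per 10000 per kb and Ifnar1 in 48.3% at 0.107. The kinases Jak1 and Tyk2 were detected in 90.5% and 37.2%. The median rho of these 4 genes with the members lay between 0.0409 and 0.0474.

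Of the 8 sensing and adaptor genes compared, Zbp1 alone reached 0.1, and Mavs, the adaptor of RIG-I and MDA5, had 0.00163 and was detected in 40.9% of cells. Tmem173, which encodes STING, was detected in 77% of cells, Irf3 in 62.8%, and Mb21d1, which encodes the DNA sensor cGAS, in 4.88%. Of the brakes on the pathway, Socs3 was detected in 95.7% of cells and Socs1 in 4.88%, and none of the 3 brakes compared reached 0.1.

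The classes of LECs were rebuilt by clustering, with the members and other interferon and MHC genes left out of the variable genes, so that 0 members shaped the clusters. A cluster was named from markers when at least 3 of a class reached 1.5 times their mean in the remaining cells. These had to be detected in at least 10% of the cluster and to outnumber the raised markers of every other class. No other class could have more of its markers among the 10 genes with the highest ratio in the cluster. Cluster 1 (26.7% of cells) was precollecting-like by Foxp2, Apoe and Bmp4, with Gja4 and Clu of the downstream-valve list also higher. Of the same precollecting list, Prelp was at 1.08 times the remaining cells and Lyve1 at 0.301, so Lyve1 went against the name. Cluster 2 (25.8%) was Ptx3+ capillary-like by Ptx3, Stab2, Mrc1, Lyve1 and Itih5, with Plvap, Selp and Aqp1 of the blood endothelial list also higher. Lyve1, Reln and Ackr2 of its list were at 1.55, 1.42 and 1.26, and higher in cluster 3, at 3.01, 1.86 and 2.51. Cluster 4 (13.9%) met the rule for Ptx3- capillary-like by Ptn, Anxa3 and Stc1. Fndc1 and Lyve1 of the same list were at 0.885 and 0.504 times the remaining cells. Fndc1 was highest in cluster 3, at 8.04 times. Ptx3 had a read in 12.1% of cluster 4, against 9.52% of cluster 3. Fndc1 and Lyve1 thus went against the name, and these cells are called cluster 4 in the text below. Cluster 5 (11.1%) was upstream-valve-like by Cldn11, Gata2 and Neo1, with Foxc2, Itga9 and Nfatc1 of that list at 1.23, 1 and 1.39. Esam of the downstream-valve list was also higher there, at 3.28, and Stc1 of the Ptx3- list at 1.71. Cluster 3 (16%), led by Tppp3, Fbln7, Slc4a11 and Fndc1, had raised markers of several classes and stayed unnamed. Reln, Ackr2 and Lyve1 of the Ptx3+ capillary list were raised there, but Fndc1 of the Ptx3- list was among its leading genes. Cluster 6 (6.55%) stayed unnamed too, with no raised class marker and a median of 2715 detected genes per cell, against 3924 to 4195 in the others. Its haematopoietic marker Fcer1g was higher, its summed haematopoietic level was 1.03 reads per 10000 against 0.252 to 0.6 in the others, and its median mitochondrial share was 2.15% against 1.27 to 1.63%. The names are rebuilt, so the classes need not hold the cells of the study's classes.

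The members were found in every class. Their summed level per cell in Ptx3+ capillary-like cells was lowest at 3.92, had a median of 29 and was highest at 290.9 reads per 10000, with a mean of 38.7 ± 37.4 (SD). In the other clusters the medians were 19.2, 19.5, 22.7, 23.4 and 20.3 for clusters 1, 3, 4, 5 and 6, and the means 30.1, 25.7, 30.3, 33.7 and 38. The mean of the Ptx3+ capillary-like cells was 1.27 times that of all other cells and 1.17 times without Bst2. The ranges overlapped across all clusters, and the SDs within them were 21.1 to 61. Within blocks of 96 cell numbers, the Ptx3+ capillary-like mean was above that of the other cells in 6 of 12 blocks, so the order of the pooled means did not hold within blocks.

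Single members differed more than the sum. In Ptx3+ capillary-like cells 4 of 32 members, or 12.5%, reached 1.5 times their mean in the remaining cells, against 5.91% of the 9666 genes compared, and 0 were at most 1 in 1.5 of it, against 5.09%. Both means had 0.1 reads per 10000 added for these ratios. The 4 were Bst2, Rsad2, Oas1a and Parp14. Leaving out, for each member, the cell of the cluster with the most of it, Parp14 was at 1.48 and the other 3 stayed above 1.5. Without the 1 cell with the highest summed level of each cluster, Cmpk2 joined the 4, and without cells with a haematopoietic read the 4 were Ddx58, Irf7, Oas1a and Rsad2.

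Bst2 had a mean of 11.6 ± 10.2 (SD) reads per 10000 in Ptx3+ capillary-like cells and means from 6.13 to 8.87 in the other clusters. Its ratio to all other cells was 1.57, and its mean was higher than theirs in 11 of 12 blocks. Without cells with a haematopoietic read the ratio was 1.46.

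Rsad2 had a mean of 0.639 ± 2.26 in Ptx3+ capillary-like cells, 0.0601 in precollecting-like, 0.155 in cluster 3, 0.0782 in cluster 4 and 0.235 in upstream-valve-like cells. At matched depth 19.4% of the Ptx3+ capillary-like class had a read of it (13.3 to 26.9%) against 3.85% of the precollecting-like class (1.42 to 8.18%). Cluster 6 had a mean of 1.09 ± 4.72 for Rsad2, from few cells. The Ptx3+ capillary-like mean was above that of the other cells in 10 of 12 blocks.

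Oas1a had a mean of 0.435 in Ptx3+ capillary-like and 0.125 in precollecting-like cells, and was higher than in the other cells in 9 of 12 blocks for the former. Parp14 had a mean of 1.69 in Ptx3+ capillary-like cells and 0.733 in cluster 3. At matched depth Parp14 was detected in 56.9% (48.4 to 65.2%) and 33% (23.3 to 43.8%) of them.

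Cluster 3 was the low end for many members. The summed level of the dissociation genes was highest there, at 313.3 reads per 10000, and lowest in Ptx3+ capillary-like cells, at 234.3, and its part in these differences was not tested. Of 32 members, 9 (28.1%) had a mean at most 1 in 1.5 of that of all other cells, against 8.4% of all genes, and 0 were at least 1.5 times higher, against 4.82%. The 9 were Dhx58, Stat2, Ifit2, Rsad2, Cmpk2, Isg15, Trim25, Parp14 and Rtp4. Isg15 had a mean of 2.43 there against 4.03 in all other cells, and Trim25 0.395 against 1.01, lower in each of 11 blocks compared. Without the highest cell of each cluster 5 of the 9 remained, Ifit2, Isg15, Trim25, Parp14 and Rtp4. Lgals3bp went the other way, with a mean of 1.76 against 1.23 and higher in 10 of 11 blocks.

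In upstream-valve-like cells 5 members (15.6%) were at least 1.5 times higher, against 6.53% of all genes, and 4 (12.5%) at most 1 in 1.5, against 10.7%. The higher were Lgals3bp, Isg15, Ifit2, Ddx60 and Samd9l, and the lower Ifih1, Ifit1, Ifit3 and Xaf1. Single cells made 3 of the 5 higher ratios. Without the cell of the cluster with the most of it, Ifit2 was at 1.05, Ddx60 at 0.925 and Isg15 at 1.15, while Lgals3bp was at 1.72 and Samd9l at 1.52. Ifit2 was higher than in the other cells in 5 of 10 blocks, Ddx60 in 4 and Samd9l in 8. Lgals3bp had a mean of 2.52 ± 5.10 there against 1.16 in all other cells, and was higher in 8 of 10 blocks. Isg15 had 5.52 ± 13.4 there, against 3.56, and higher in 6 of 10 blocks. Without the highest cell of each cluster Isg15 no longer reached 1.5, and Rsad2 and Trim30a joined the lower members, which were then 6.

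Clusters 1 and 4 also had no member at 1.5 times. In precollecting-like cells 0 members reached it, against 3.2% of all genes, and 4 (12.5%), Oas1a, Rsad2, Cmpk2 and Usp18, were at most 1 in 1.5, against 5.45%. Without the highest cell of each cluster these were 2, Oas1a and Rsad2. In cluster 4, 0 members reached it, against 4.92%, and 3 (9.38%), Ifit2, Rsad2 and Herc6, were at most 1 in 1.5, against 6.4%. Without the highest cell of each cluster Oasl2 took the place of Herc6. A thinned cell of cluster 4 carried a median of 10 members, as did one of the upstream-valve-like cells. The median was 9 in Ptx3+ capillary-like cells, 7.5 in cluster 3 and 7 in precollecting-like cells.

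Cluster 6 mixed high means with few members per cell. Of 32 members 11 (34.4%) were at least 1.5 times higher, against 12.5% of all genes, and 4 (12.5%) at most 1 in 1.5, against 28.2%. Yet a thinned cell of it carried a median of 4 members, the lowest of the 6 clusters. A single cell weighed on these means. It had the highest summed level of all cells analysed, 337.9 reads per 10000, and gave 20.7% of the cluster's total. It held the highest value of 10 members, Rsad2, Cmpk2 and Ifit3 among them, and had reads of 0 of 9 haematopoietic markers. Without it the cluster's mean was 30.9, and without the highest cell of each cluster 5 members were at 1.5 times, Ifit2, Rsad2, Trim25, Ddx60 and Sp100. The Trim25 mean rested on another cell, with 67.4 reads per 10000, or 69.5% of the cluster's total for that gene. Leaving out, for each member, the cell of the cluster with the most of it, 3 of the 11 stayed at 1.5 times, Ifit2, Ddx60 and Sp100, and Trim25 was at 0.875.

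**Figure D4:**
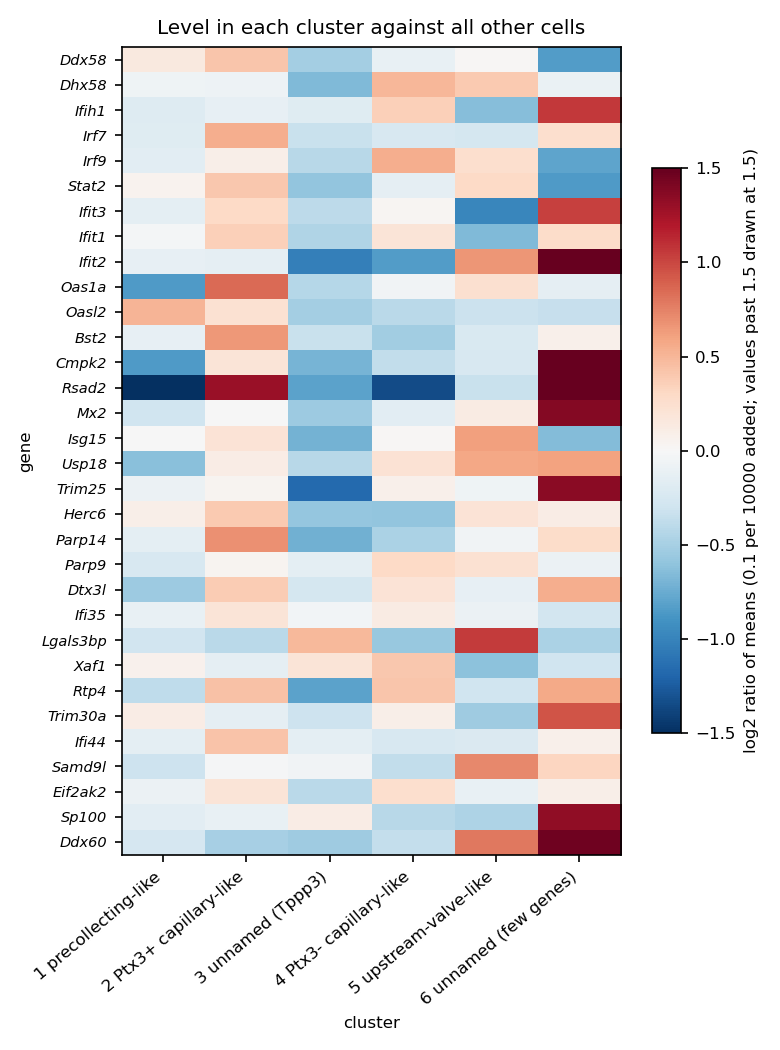
Mean level of each of the 32 genes in each cluster against all other cells, as log2 of the ratio with 0.1 reads per 10000 added to both means (red higher, blue lower, drawn up to 1.5 in size). The rows of Rsad2 and Bst2 are red in the Ptx3+ capillary-like column, and the column of cluster 3 is mostly blue.

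Across clusters 1 to 5, the highest mean of a member was a median of 1.83 times its lowest, against 1.60 for all genes, and 10 members (31.3%) reached 2 times, against 22% of all genes. The highest mean lay in Ptx3+ capillary-like cells for 14 of 32 members and the lowest in cluster 3 for 14. These counts were not taken over all genes, so they are not read as particular to the members. Rsad2 had the widest range, at 4.62 times, and Ifi35 the narrowest, at 1.17. For 2 members, Rsad2 and Parp14, the matched-depth intervals of the highest and the lowest cluster did not overlap. These clusters were picked for each member from the same cells, and the intervals cover counting error only. The lack of overlap is therefore a description and not a test. It was not counted over all genes, so it is not read as particular to the members. The median rho between pairs of members was 0.154 both with and without the cluster means removed.

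Cell numbers were taken in 12 blocks of 96, the size of a plate, since cells had been sorted into 96-well plates, though no label ties a number to a plate. The mean summed level per block ran from 26.4 reads per 10000 in block 5 to 45.6 in block 9, a ratio of 1.72. Blocks 1 to 5 and 11 had means of 26.4 to 31.5, and blocks 6 to 10 and 12 had means of 36.3 to 45.6. The medians did not split in the same way. That of block 10 was 21.6, below 22.5 in block 3, 23.2 in block 4 and 22.6 in block 11. Cells of all blocks overlapped. Block 9 held 20 cells, of which the cell with the highest summed level gave 37.1% of the block's total, and without the highest cell of each block its mean was 30.2.

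**Figure D5:**
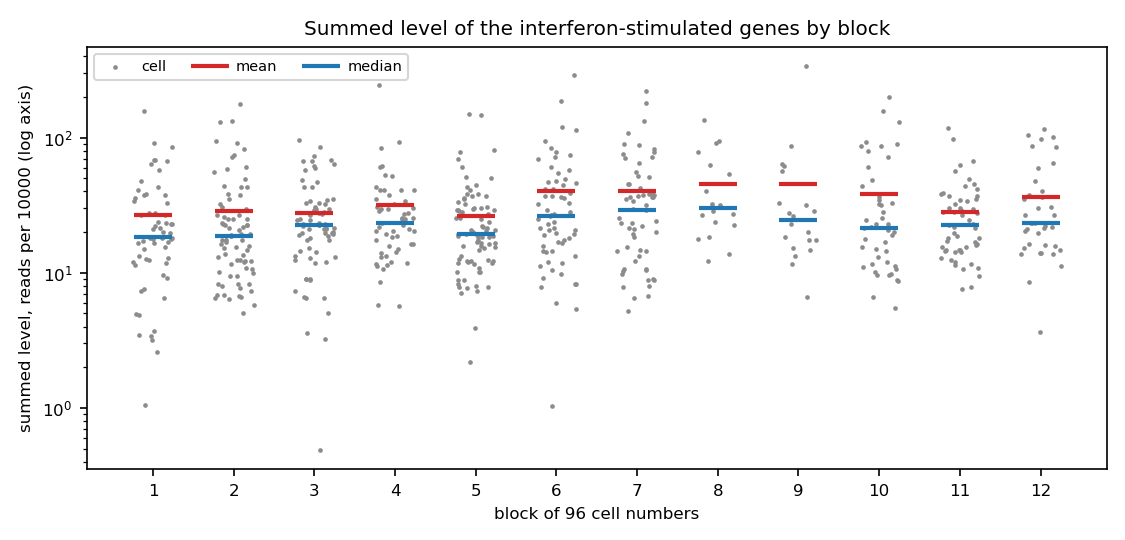
Summed level of the 33 genes in each cell (grey points, log axis, reads per 10000) by block of 96 cell numbers, with the mean (red) and the median (blue) of each block. The medians lie between 18.2 and 30.2, and the points of all blocks overlap.

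Depth, class and dissociation genes differed between the same blocks. Median reads per cell ran from 52583 in block 6 to 2450280 in block 8, and the share of Ptx3+ capillary-like cells from 17.7% in block 2 to 40% in block 7. The summed level of the dissociation genes ran from 209.9 reads per 10000 in block 11 to 322.3 in block 4. Their part in the differences between blocks was not tested. With clusters weighted equally in each block, the highest block mean was 2.16 times the lowest.

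The highest block mean of a member was a median of 3.29 times its lowest, against 2.62 for all 9666 genes. For Cmpk2 the ratio was 18.5 (again with 0.1 added), from 0.077 in block 11 to 3.18 in block 9, where 1 cell held 56.8 reads per 10000. For Bst2 the block means ran from 6.69 to 10.4. The largest sub-group had a mean of 22.6 reads per 10000 in block 8 and 9.13 in block 11.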

How the data were processed

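The labels held 1152 samples, each 1 cell, of which 656 were in the deposited file. The deposited values are the natural log of 1 plus reads per 10000 per cell, made by the authors from featureCounts counts of STAR alignments to mm10 with Seurat 4.1.0 (submitters' notes and methods). The methods name log2, but whole reads were recovered in base e for every value within 0.01 reads. Neither strand nor multi-mapping settings are given in the sources used here. Plate numbers are not given either, so blocks of 96 cell numbers stood in for them.

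Levels were taken as reads per 10000, divided by GENCODE M21 exon length where genes are compared. The reads of 568 cells with at least 20000 were thinned to 20000. Spearman's rho was computed over genes detected in at least 10% of cells, and sub-groups by average linkage at 0.2. Clusters came from Seurat 5.3.0 in R 4.3.3 with 43 interferon and MHC genes left out, and other values from Python 3.11.15. With 1 pool of cells, no test was made. The scripts were tested on simulated data. Genes were named by role for all members, and outside the list as the 15 with the highest median rho, of which 1 is not reported here. Members, lists and rules were chosen with earlier results of these data known. Detection limits, thinning, regressions, clustering settings and left-out cells were varied.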

Additional observations from a re-analysis of the deposited data

How the results depend on the processing

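The median share of cells in which a member was detected, 34.9%, was 10.7% when only log values above 1 were counted, 24.3% after thinning to 20000 reads, and 39.4% once the 25% of cells poorest in detected genes were left out. The median log level, 0.245, was 0.449 as the log of the linear mean. The largest sub-group held 23 genes at a cut of 0.15 and 7 at 0.25. Genes outside the list with a median rho of at least 0.1 numbered 55, and 36 with detected genes regressed. With the interferon genes kept among the variable genes, of which 18 were then members, the summed level in the cluster nearest the Ptx3+ capillary-like one was 1.92 times that of the other cells and 25 members reached 1.5 times. That count, 4 as reported, was 7 with more variable genes, 8 with fewer and 12 with 30 principal components, and 3 to 5 elsewhere. The share of all genes at 1.5 times was taken only for the clusters as reported. The counts under other settings therefore have no background, and the matched clusters differ in their cells. For these moves the cause was not tested. Rsad2 ran from 2.19 to 4.86 times and Bst2 from 1.46 to 1.8 under the clustering and cell settings. Without the cell with the highest summed level of each cluster, the members at 1.5 times in cluster 6 were 5 in place of 11, and those at most 1 in 1.5 were 5 in place of 9 in cluster 3, 2 in place of 4 in cluster 1 and 6 in place of 4 in cluster 5. The medians of covariation and the ratio of blocks stayed within 1.5 times of the values reported. The thinning seed, the 50000-read thinning, the left-out cells, the block summaries by median or equal class weight and the regression for sub-groups and similar genes were chosen after seeing the data. No paired analysis was possible because the cells form 1 group and no result comes from a test. Reads of a rare member in shallow cells limit what its absence shows.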
